A study of Mus musculus with 2 samples.

Results

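The AP-1 transcription factors of the immediate early response were described in 2 adrenal glands of aged mice. The set holds 8 genes of the 55536 annotated genes measured: Fos, Fosb, Fosl1 and Fosl2 (the Fos group), Jun, Junb and Jund (the Jun group), and Atf3. Their rows were picked out by gene symbol. All 8 were found by symbol in each library. Each library came from total RNA of the adrenal gland of 1 female of the B6CASTF1/J strain, a first-generation cross, aged 18 to 20 months. No treatment is named in the labels. The libraries are called animal 1 and animal 2 after their biological replicate numbers. One label field of animal 2 repeats the name of the female and library of animal 1, and both carry 1 donor identifier. The sample labels otherwise name 2 females. The series as analysed here has 1 group, so no condition was compared and no test was made. Ratios between the animals describe these 2 libraries, and each SD is that of 2 values.

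AP-1 is a dimer of basic leucine zipper proteins that binds DNA at short palindromic sites. Fos proteins do not bind DNA as pairs of their own and usually partner Jun proteins, whereas Jun proteins can also pair with each other, and Atf3 pairs with Jun proteins or with itself. Fos, Fosb, Junb and Atf3 are classic immediate early genes: their messenger RNA is scarce in resting cells, appears within minutes of a stimulus through kinases acting on factors already bound at the promoter, and decays fast. Jund is transcribed in most resting cells, and Fosl2 and Fosl1 usually follow the first wave. In the adrenal gland, corticotropin acts on cortex cells and the splanchnic nerve on chromaffin cells, and both stimuli are known to induce AP-1 genes.

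The bases upstream of Fos and Fosb are shown because both are classic rapidly induced genes with the same promoter word, while Fosb, unlike Fos, was far apart between the animals. Each run is the 250 bases before the start site given by RefSeq on build GRCm38.p6, read in the direction of transcription. Capitals mark TGACG, the short form of a cyclic AMP response element. In Fos they also mark the TATA box near the end of the run.
Fos, chr12:85473640-85473889, plus strand: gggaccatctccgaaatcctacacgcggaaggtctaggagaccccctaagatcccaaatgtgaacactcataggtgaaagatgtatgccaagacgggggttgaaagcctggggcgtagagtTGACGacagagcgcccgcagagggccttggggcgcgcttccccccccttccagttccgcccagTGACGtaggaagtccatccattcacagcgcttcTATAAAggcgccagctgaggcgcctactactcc
Fosb, chr7:19310046-19310295, minus strand: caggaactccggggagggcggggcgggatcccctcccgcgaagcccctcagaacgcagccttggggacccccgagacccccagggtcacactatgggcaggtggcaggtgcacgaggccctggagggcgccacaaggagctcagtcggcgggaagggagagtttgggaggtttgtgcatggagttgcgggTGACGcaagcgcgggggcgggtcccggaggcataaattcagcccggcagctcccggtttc

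TGACG began 129 and 66 bases upstream of the Fos start and 60 bases upstream of the Fosb start. Searched on both strands, TGACG was present in 4 of the 7 members that have a window (Fos, Fosb, Junb and Atf3) and in 17.8% of 32851 RefSeq windows of the same length. TATAAA was present in the Fos window, 33 bases upstream of the start, and in no other member's window, against 12.4% of all windows. GGGCGG, the core of an Sp1 site, was present in 5 of the 7, against 32.7%, and CCAAT in Jun and Junb, against 33.8%. The full element TGACGTCA, which contains TGACG, the AP-1 site TGANTCA and the CArG box bound by serum response factor had no match in any of the 7. They occurred in 1.55%, 6.75% and 1.47% of all windows. A match is a description of these letters, and no match speaks only of these 250 bases. The RefSeq start lay on the start of the GENCODE gene for Fos and Jun and 6 bases away for Fosb, but 671 bases away for Fosl2, 1210 for Jund and 34706 for Atf3, whose windows are therefore those of 1 start among several possible ones.

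Levels are given in TPM, the abundance per transcript length scaled to 1 total per library, as the authors deposited it. On this scale, which allows genes to be compared, 3 members made up most of the AP-1 messenger RNA: Fosl2, Jund and Jun. Fos itself, the gene after which the family is named, was near the bottom. The order by mean TPM was Fosl2, Jund, Jun, Junb, Fosb, Atf3, Fos and Fosl1.

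**Figure D1:**
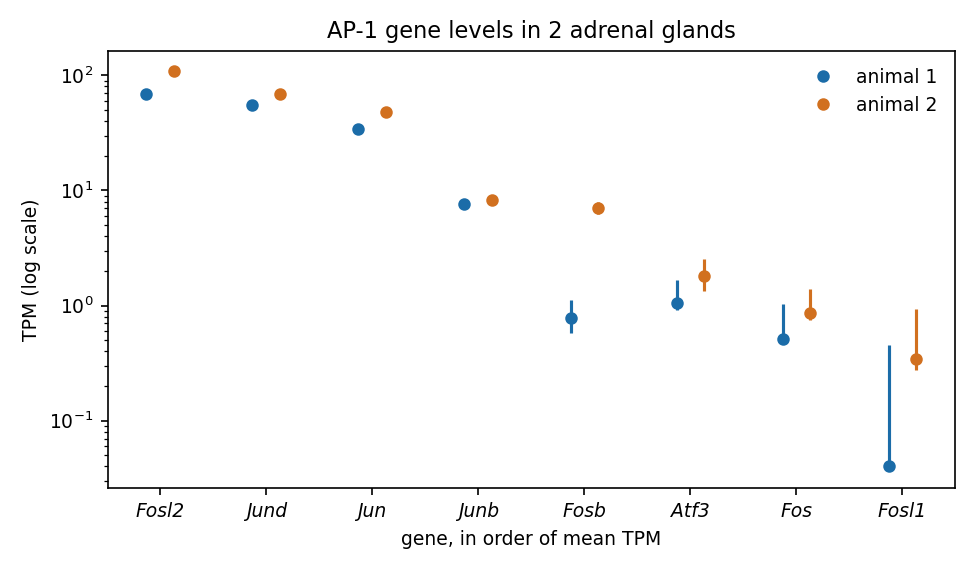
TPM (log axis) of the 8 AP-1 genes in animal 1 (blue) and animal 2 (orange), with the deposited interval of each value as a vertical line where it is wider than the point. Fosl2, Jund and Jun lie above 30 TPM in both animals and Fos and Fosl1 below 1 TPM in both, and the pair of Fosb points is 0.78 and 7.0 TPM.

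Of the Fos group, Fosl2 (ENSMUSG00000029135.10, chr5:32135801-32157842, plus strand), whose product is Fra-2, was the most abundant. It had 68.99 TPM in animal 1 against 109.78 TPM in animal 2 (89.4 ± 28.8, SD, n = 2), and ranked 695 among all annotated genes. These levels rested on 16228 and 22942 expected counts, the deepest of any member. It held 98.1% of the Fos group's summed TPM in animal 1 and 93.0% in animal 2.

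Fos (ENSMUSG00000021250.13, chr12:85473890-85477273, plus strand), the founding member and the usual marker of recently stimulated cells, had 0.51 TPM in animal 1 against 0.87 TPM in animal 2 (0.690 ± 0.255, n = 2), on 40 and 58 expected counts. It ranked 13940. The Fosl2 level was 135 times the Fos level in animal 1 and 126 times in animal 2. On the log2 scale that ratio was 7.03 ± 0.07 (n = 2). The second quantification, described below with the transcripts, gave 122 and 150 times (log2 7.08 ± 0.21), so which animal had the larger ratio changed with the quantification.

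Fosb (ENSMUSG00000003545.3, chr7:19302696-19310051, minus strand), whose stable short protein accumulates in repeatedly stimulated neurons, had 0.78 TPM in animal 1 against 7.0 TPM in animal 2 (3.89 ± 4.40, n = 2). The SD exceeds the mean, so the mean stands for neither animal. The expected counts were 54 and 680. Fosb exceeded Fos 1.53 times in animal 1 and 8.05 times in animal 2, and its share of the Fos group was 1.11% and 5.93%.

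Fosl1 (ENSMUSG00000024912.6, chr19:5447547-5455946, plus strand), which encodes Fra-1, was the least abundant, with 0.04 and 0.34 TPM (0.190 ± 0.212, n = 2). Only 3 and 21 expected counts lay behind these values, so the level in animal 1 cannot be told from the limit of 3 counts that a count of 0 allows. Ccdc85b, a coding gene on the opposite strand with 2.19 and 1.93 TPM, overlaps Fosl1 by 2767 bases, and its part in these few counts was not tested.

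Of the Jun group, Jund (ENSMUSG00000071076.6, chr8:70698949-70700616, plus strand), the member known for steady transcription in resting cells, had 55.73 TPM in animal 1 against 68.80 TPM in animal 2 (62.3 ± 9.24, n = 2). Jun (ENSMUSG00000052684.4, chr4:95049034-95052222, minus strand), which encodes c-Jun, had 33.99 and 48.32 TPM (41.2 ± 10.1, n = 2). Both were well covered, with 3399 and 3831 expected counts for Jund and 4083 and 5299 for Jun. Antisense genes overlap both on the opposite strand, Junos at Jun (1.77 and 2.38 TPM) and Gm11175 at Jund (2.59 TPM in each animal). Jund exceeded Jun in each animal, 1.64 times in animal 1 and 1.42 times in animal 2.

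Junb (ENSMUSG00000052837.6, chr8:84974484-84978718, minus strand), a rapidly induced member that activates transcription less strongly than c-Jun, had 7.66 TPM in animal 1 against 8.19 TPM in animal 2 (7.93 ± 0.375, n = 2). It was the member whose level differed least between the animals. Jun exceeded it 4.44 and 5.90 times. Prdx2, a peroxiredoxin gene with 204.6 and 230 TPM, overlaps Junb by 351 bases on the opposite strand. The library kit keeps strand. The sources used here do not say whether the counting used it, and a contribution of Prdx2 to the Junb counts was not tested.

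Atf3 (ENSMUSG00000026628.13, chr1:191170296-191218039, minus strand), a stress-induced factor that often represses its targets, had 1.06 TPM in animal 1 against 1.82 TPM in animal 2 (1.44 ± 0.537, n = 2), on 77 and 99 expected counts. Its level was 2.08 times that of Fos in animal 1 and 2.09 times in animal 2.

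Neighbours in this order were separated to different degrees. The 2 animals' TPM ranges overlapped for 1 neighbouring pair, Fosb and Atf3. Fosl2 and Jund met almost exactly, since Fosl2 of animal 1 (68.99 TPM) lay just above Jund of animal 2 (68.80 TPM). Within a library, the deposited intervals overlapped for Junb and Fosb in animal 2, for Fosb and Atf3 in animal 1, for Atf3 and Fos in both animals, and for Fos and Fosl1 in animal 2. Fosl2, Jund, Jun and Junb kept their order with intervals apart in each animal.

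The 8 members summed to 169 TPM in animal 1 against 245 TPM in animal 2 (206.9 ± 54.0, n = 2). The Jun group held 57.7% and 51.1% of that sum (54.4 ± 4.65%), the Fos group 41.7% and 48.1%, and Atf3 0.628% and 0.742%. In these tissue libraries the summed messenger RNA of Jun and Fos partners was thus of similar size, with Fosl2 as nearly the whole Fos side. The Jun side was spread over Jund (57.2% and 54.9% of it), Jun (34.9% and 38.6%) and Junb (7.87% and 6.54%). Fosl2 has a long transcript: by expected counts, which are not corrected for length, the Jun group's share was 30.8%.

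**Figure D2:**
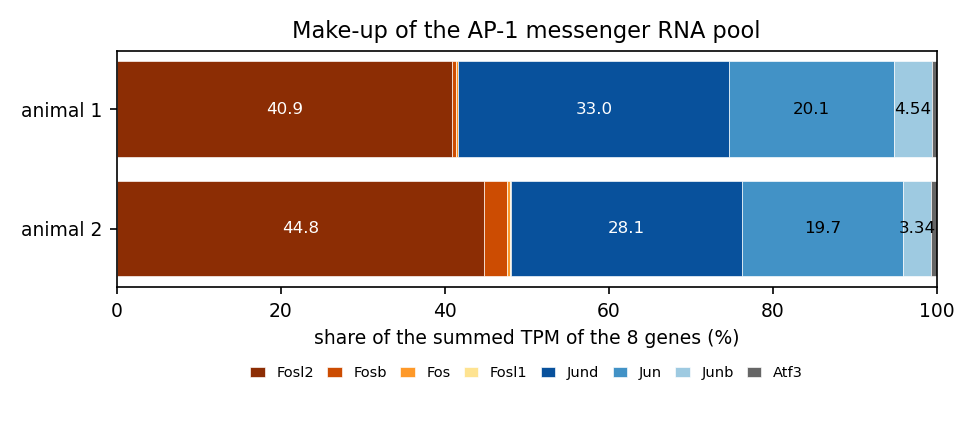
Share (%) of each gene in the summed TPM of the 8 AP-1 genes, 1 stacked bar per animal, with the Fos group in brown to yellow, the Jun group in blues and Atf3 in grey. Fosl2, Jund and Jun fill most of both bars, and the Fosb segment widens from 0.462% in animal 1 to 2.86% in animal 2.

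Before the animals are set against each other, the 2 libraries need description. Their totals were 35769717 and 35135703 expected counts, of which 99.1% and 99.3% fell on annotated genes. Skeletal muscle markers summed to 185 TPM in animal 1 against 0.55 TPM in animal 2, with 4 of 9 (Ckm, Atp2a1, Myh2 and Myh4) at 0 in animal 2. Adipocyte markers summed to 3268 and 2089 TPM and were lower in animal 2 for 7 of 7. Cortex markers summed to 15669 and 20107 TPM, the 2 markers of the X-zone, the layer of cortex next to the medulla, to 118 and 1047 TPM, and chromaffin markers to 1813 and 1531 TPM. Heat shock genes, which respond to handling of tissue, summed to 1211 and 1937 TPM and were higher in animal 2 for 6 of 6. By the 2-fold rule given below, 9 of 9 muscle markers and 1 of 7 adipocyte markers were called higher in animal 1, and both X-zone markers and 2 of 6 heat shock genes higher in animal 2. Zona glomerulosa markers summed to 373 and 330 TPM, endothelial markers to 126 and 138 TPM, macrophage markers to 97.6 and 114 TPM, capsule and fibroblast markers to 122 and 96.1 TPM, and glial markers to 13.3 and 9.05 TPM. The glands therefore carried cortex and medulla markers in both libraries. Markers of the surrounding tissue differed, and so did markers within the gland, where both X-zone markers were called. All 7 chromaffin markers were lower in animal 2, but none was called. Of 7 cortex markers, 4 rose and 3 fell from animal 1 to animal 2, again without a call. The part of any of these marker groups in the differences below was not tested. Fewer cells of a type cannot be told apart from less RNA per cell in bulk tissue.

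Fosb was the member that stood apart between the animals. Ratios of animal 2 over animal 1 were taken from expected counts scaled with TMM, which sets the bulk of genes to no difference, with 0.5 added. A call required a ratio of 2 or more in either direction, 50 or more expected counts on average, and deposited TPM intervals that were apart. Of the 8 members, 1 was called, against 3.46% of 13569 genes with enough counts by the same rule in either direction and 1.71% in the direction of animal 2. Fos and Fosl1 had too few counts to be called.

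The Fosb ratio was 13.2, or 3.73 on the log2 scale, with a 95% counting interval (exact Clopper-Pearson) of 10.1 to 17.9. Among the 13569 genes, 0.339% were at least as far apart in either direction. Taken from TPM instead, its log2 ratio was 3.15. The interval covers counting error only, and without molecular identifiers reads cannot be taken as separate molecules. With 1 library per animal, a difference between the animals cannot be told apart from one between the tissue pieces or library preparations.

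The other members differed less. Fosl2 was 1.5-fold higher in animal 2 (log2 0.58, interval 0.55 to 0.61), Jun 1.37-fold (0.46, 0.40 to 0.52) and Jund 1.19-fold (0.26, 0.19 to 0.32). These 3 are deeply counted, and their TPM intervals were apart. Including Fosb, that held for 4 of 8 members, against 28.0% of the 17012 genes that averaged 10 counts or more, in either direction. That share covers every depth from 10 counts up, whereas Fosl2, Jun and Jund averaged 19585, 4691 and 3615 counts. No share among genes of like depth was taken.

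Atf3 had a log2 ratio of 0.44 and Fos of 0.61, with counting intervals that reached down to 0.00 and 0.01. Fosl1 had a log2 ratio of 2.70 with an interval from 1.15 to 5.28, the widest of all members because of the 3 counts in animal 1. Junb had a log2 ratio of 0.05 (interval −0.13 to 0.23), whose direction was not detectable at this depth. For Atf3, Fos, Fosl1 and Junb the deposited TPM intervals overlapped.

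All 8 ratios lay above 1, against 48.7% of genes averaging 10 counts or more and 48.3% of those averaging 50 or more; under scaling by total counts and in the second quantification Junb turned to log2 −0.01 and −0.07 and the count was 7. Of the members, 6 had a mean count of at least 50. The median log2 ratio was 0.52 over the members and −0.01 over all genes averaging 10 counts or more. The members share 2 libraries, so their common direction is 1 observation on these libraries and not 8. Scaling to the spike-in RNAs, whose share was 0.886% in animal 1 and 0.730% in animal 2, moved the median of all genes to 0.21 and that of the members to 0.74.

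**Figure D3:**
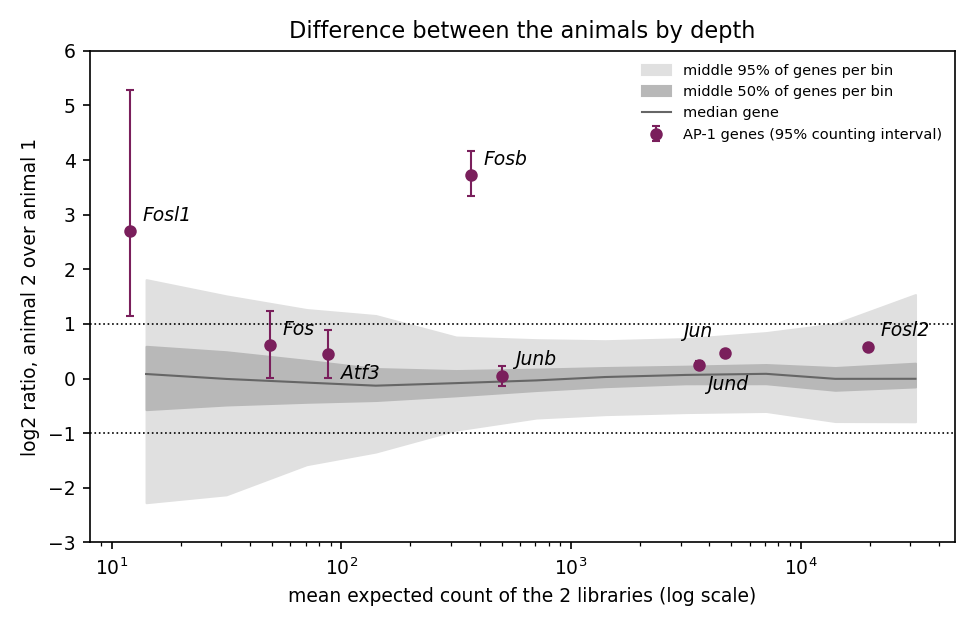
Log2 ratio of animal 2 over animal 1 against mean expected count (log axis) for the 8 AP-1 genes, with 95% counting intervals, over the middle 50% (dark grey) and middle 95% (light grey) of all genes in bins of mean count, and dotted lines at 2-fold. Fosb, at log2 3.73, and Fosl1, at 2.70 on 3 and 21 counts, lie above the light band, and the other members lie within it.

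Fosb was also the member with the most annotated transcripts. Full-length Fosb reads through a segment of 140 bases inside its coding sequence, and removal of this segment as an intron gives the delta form, whose reading frame stops directly behind the junction. The delta protein lacks the C-terminal part of the full-length protein and is known for its long life. The segment and the junction are shown because they set the 2 forms apart. Capitals mark the first and last 2 bases of the segment, GT and AG, as at most introns, and the stop codon behind the junction. Both are from the minus strand of mm10, in GENCODE M21 transcripts.
Segment kept in Fosb-201, chr7:19305007-19305146: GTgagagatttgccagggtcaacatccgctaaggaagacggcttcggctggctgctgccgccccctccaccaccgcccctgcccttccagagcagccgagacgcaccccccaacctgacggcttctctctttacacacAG
Junction in Fosb-207, within chr7:19305004-19305173: gggccggggccaggcccgctggccgagTGA

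The annotation holds 7 Fosb transcripts, of which 4 keep the segment, 2 lack it and 1 retains an intron. Transcript Fosb-201 codes for 338 residues, Fosb-206 for 237 and Fosb-207 for 201. Transcripts that keep the segment held 28.2% of Fosb TPM in animal 1 and 25.8% in animal 2 (27.01 ± 1.69%, n = 2), and the delta transcripts 70.5% and 73.9%. The second quantification gave 28.6% and 32.0% for the transcripts that keep the segment. The delta form was thus the larger share by TPM in both libraries and both quantifications.

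By expected counts the order was not the same in both animals. Transcripts that keep the segment had 31.4 and 237 counts, and delta transcripts 21.3 and 441. In animal 1 the delta share rested wholly on Fosb-206, a short model of 1090 bases with 21.3 counts, and Fosb-207 was at 0. In animal 2 Fosb-207, of 3523 bases, had 364 counts in the first quantification and 292 in the second. The zero in animal 1 is on a gene with 54 counts in all, so an absence of Fosb-207 there was not shown.

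**Figure D4:**
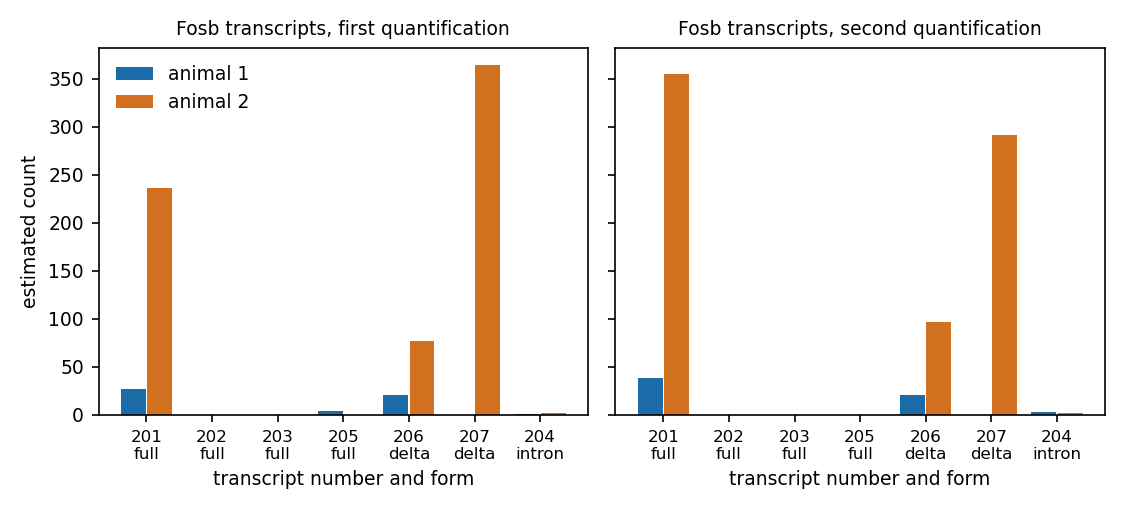
Estimated counts of the 7 Fosb transcripts in animal 1 (blue) and animal 2 (orange), by the first (left) and second (right) quantification, where full keeps the 140-base segment, delta lacks it and intron is the retained-intron transcript. Transcripts 201, 206 and 207 carry nearly all counts in animal 2, and 201 and 206 nearly all in animal 1.

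The other members offered less choice of transcript. Jun and Jund have 1 annotated transcript each. Fosl2 has 1 coding transcript, Fosl2-201 of 6537 bases, and 2 with a retained intron, which held 9.39% of Fosl2 TPM in animal 1 and 13.6% in animal 2. The second quantification put that share at 26.0% and 30.7%. Total RNA includes unspliced precursors, and the part of these in the retained-intron values was not tested. All Fosl1 counts were on Fosl1-201. Fos-201, the coding Fos transcript, held 100% and 89.7% of Fos TPM in the first quantification but 67.1% and 67.7% in the second, where short noncoding models took the rest. Levels too differed between the quantifications: the second TPM was higher than the first for every member in both animals, from 1.44 times for Junb to 2.47 times for Atf3.

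The genes around AP-1 were taken as 7 lists, and members of a list with 10 or more mean counts are counted here. A call needs 50 or more, which 10 partners, 4 NR4A and EGR factors, 20 other rapidly induced genes and 9 AP-1 targets reached. In the remaining lists every gene counted here reached it. Of all genes with that many counts, 3.46% were called. Of 11 measured partners, bZIP proteins that can pair with Fos or Jun, 10 were higher in animal 2 (against 48.7% of all genes, as above) and 1 was called. The median log2 ratio was 0.29. Maff, a small Maf protein without an activation domain, was the called gene, with 1.25 TPM in animal 1 against 4.26 TPM in animal 2 (log2 1.73). The most abundant partner was Atf4, the effector of the integrated stress response, with 44.9 and 83.0 TPM (log2 0.84). Atf2, a substrate of stress kinases, had 19.3 and 22.2 TPM, and Mafg 14.2 and 20.9 TPM.

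Of 15 kinases that act upstream of AP-1, 11 were higher in animal 2 and none was called. Their median log2 ratio was 0.12. Among the abundant ones were Map2k2, a kinase of the mitogen-activated cascade (50.8 and 54.1 TPM), and Mapk3 (32.4 and 39.6 TPM), which acts below it. Their log2 ratios were 0.02 and 0.18.

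Of 14 regulators known to act at the Fos and Jun promoters, 12 were higher in animal 2, 1 was called, and the median log2 ratio was 0.22. The called gene was Crem, which encodes cyclic AMP responsive activators and, from an inner promoter, the inducible repressor ICER. It had 21.04 TPM in animal 1 against 96.7 TPM in animal 2 (log2 2.05). Elk4, a ternary complex factor, had 22.1 and 26.1 TPM, and Atf1, a relative of Creb, 18.3 and 18.9 TPM.

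Of 15 genes of feedback and messenger RNA decay, 10 were higher in animal 2 and none was called, with a median log2 ratio of 0.13. Zfp36l1, which promotes decay of AU-rich transcripts, had 66.7 and 68.0 TPM. Dusp6, a phosphatase of ERK that ERK signalling itself induces, had 40.7 and 70.9 TPM (log2 0.62). Elavl1, which stabilises such transcripts, had 25.2 and 34.8 TPM.

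The NR4A and EGR factors, other immediate early genes that corticotropin and nerve stimuli are known to induce, lay both above and below Fos in level. Nr4a1 (Nur77) had 85.8 TPM in animal 1 against 83.0 TPM in animal 2, and Nr4a3 15.5 and 32.4 TPM (log2 1.00, just below the threshold of 2-fold). Nr4a2 had 3.33 and 5.07 TPM, and Egr1 2.82 and 4.63 TPM. Egr3 (0.21 and 0.31 TPM), Egr2 (0.31 and 0.19 TPM) and Egr4 (0 and 0.01 TPM) were below Fos in each animal. Of 6 measured, 5 were higher in animal 2 by scaled expected counts, with a median log2 ratio of 0.72. That median lies between Egr1 (log2 0.71) and Egr2, and it depends on 2 genes with few counts, Egr2 and Egr3. It is therefore not ranked against the 0.52 of the AP-1 members. Nr4a1 had a log2 ratio of −0.10 and Nr4a2 of 0.13, and Egr3 had 1.80 on 10 and 34 expected counts. Egr2 is among the 5 on 10 and 16 expected counts (log2 0.73), although its TPM was lower in animal 2. Only 4 of the 6 had enough counts to be called, and none was.

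Of 21 other rapidly induced genes, 13 were higher in animal 2 and none was called, with a median log2 ratio of 0.15. Cebpb, a bZIP factor of the C/EBP family, had 151 and 152 TPM, Rhob, a small GTPase, 59.5 and 56.1 TPM, and Ccn2, a matricellular protein gene, 16.2 and 33.5 TPM (log2 0.94). Of 11 genes known as AP-1 targets, 6 were higher in animal 2 and 1 was called, and the median log2 ratio was 0.02. The called gene was Spp1 (osteopontin), with 6.49 and 15.9 TPM (log2 1.23). The most abundant were Th, which makes the rate-limiting enzyme of catecholamine synthesis and is also a chromaffin marker (232 and 165 TPM), the cyclin gene Ccnd1 (53.5 and 42.3 TPM) and the adhesion receptor gene Cd44 (20.1 and 26.2 TPM). Over the 7 lists, 3 of 87 genes with 50 or more mean counts were called (3.45%), which is close to the 3.46% of all genes.

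**Figure D5:**
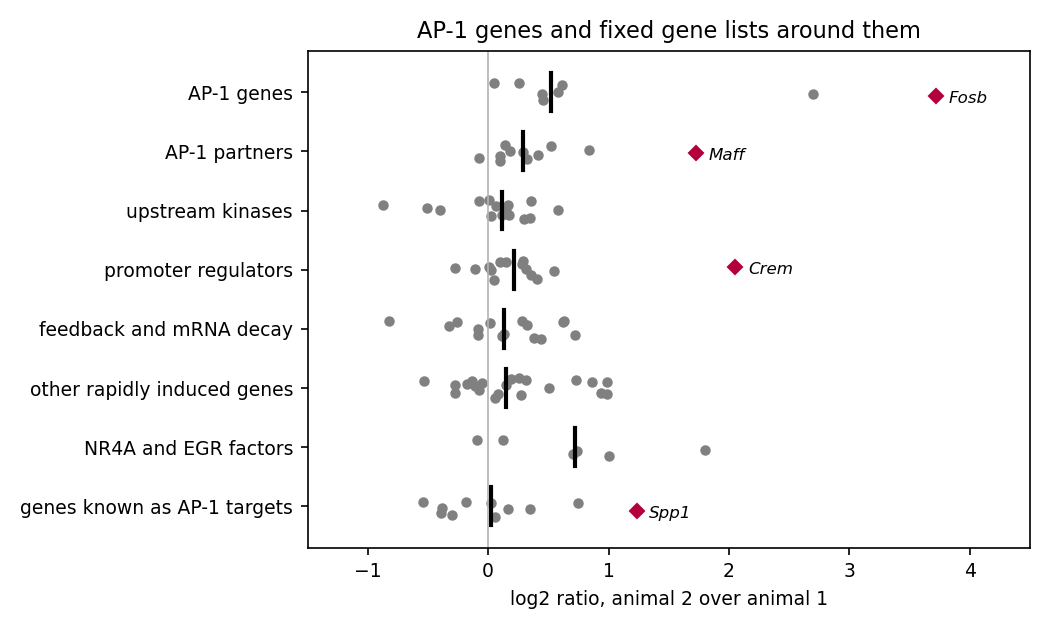
Log2 ratio of animal 2 over animal 1 for the AP-1 genes and for the members of 7 lists with 10 or more mean counts, 1 point per gene, with the median as a black bar and genes that passed the 2-fold rule as named red diamonds. Fosb, Maff, Crem and Spp1 are the named genes, and all list medians lie between 0.02 and 0.72.

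For each member, the protein-coding gene nearest to it in scaled counts over the 2 libraries was found, by the Euclidean distance in log2 units. With 2 libraries many genes lie close by, and the distance says only that the 2 values are alike. The nearest genes were Ddx5 for Fosl2, Rad23b for Jund, Fam91a1 for Jun, Gsta4 for Junb, Orm3 for Atf3 and Map3k15 for Fos, at distances of 0.0034 to 0.060. Fosb had no close neighbour: the nearest was Obp2a, an odorant binding protein gene with 2.67 TPM in animal 1 against 20.2 TPM in animal 2, at a distance of 0.63. For Fosl1 the nearest gene with enough counts, Gdf9, was 2.82 away.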

How the data were processed

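Per the labels, each library was made from 300 ng of adrenal gland RNA with a strand-keeping kit, with ribosomal RNA reduced and ERCC spike-ins added. Expected counts and TPM per gene and transcript, and a second table of estimated counts and TPM per transcript, were deposited by the authors for mm10 with GENCODE M21, per the deposited description. The sources used here name no program. The bounds of the TPM intervals, of a level that is not stated, were used as deposited and treated as a score. TPM is scaled over all entries of a library, spike-ins included. How reads of the CAST allele align to mm10 was not tested.

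Here expected counts were rounded and scaled with TMM (edgeR 4.0.16, R 4.3.3) over annotated genes, leaving out 96 spike-ins and 26248 entries named by number; 0.5 was added. Size factors of DESeq2 1.42.0, spike-in totals, total counts, other gene sets, TPM and the second quantification were alternatives. Ratios were tested on simulated data. With 1 group of 2 libraries no significance test was made. The listed symbols that the tables lack were matched through RefSeq synonyms. Named are all 8 members, of each list the 3 genes with the highest mean TPM (1 is not reported here) and any past the call rule, and each member's nearest gene; Egr1 to Egr4 were added after their values were seen, and markers are given as sums. The members and lists were chosen with earlier results of these data known.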

Additional observations from a re-analysis of the deposited data

How the results depend on the processing

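The median log2 ratio of the 8 members was 0.52 with TMM, 0.74 with spike-in totals, 0.46 with total counts, 0.46 in the second quantification and 0.71 from TPM; it kept its sign throughout. Fosb was the 1 member past the 2-fold rule under every scaling and every form of the rule tried. Each form kept the floor of 50 counts, the interval condition or both. Fos and Fosl1, with mean counts of 49 and 12 and overlapping intervals, could pass none of them. The Fosb log2 ratio ran from 3.15 (TPM) to 3.95 (spike-in totals). The Jun group's share, 54.4%, was 30.8% by expected counts. The summed TPM, 206.9, was 387 in the second quantification and 682 when TPM was rescaled over nuclear protein-coding genes, so sums hold on 1 scale only. The share of Fosb transcripts that keep the segment, 27.01%, was 30.3% in the second quantification. Leaving out 1 animal gave 51.1 to 57.7% for the Jun group, 169 to 245 for the sum and 25.8 to 28.2% for the Fosb share. No paired analysis was possible because there is 1 group. Depth limits Fos, Fosl1 and Atf3, each with under 100 counts in both libraries. It also limits the Fosb values of animal 1, which rest on 54 counts.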
